A study of Mus musculus with 3 samples.

Results

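Innate-like T cells without CD4 or CD8 were defined here as T cell receptor complex-bearing cells of the mouse pancreas that lacked transcripts of both coreceptors and carried genes shared with natural killer (NK) cells. The cells were chosen by their transcript counts. A member had at least 2 unique molecular identifiers (UMIs, each standing for 1 captured RNA molecule) of Cd3e, Cd3d and Cd3g together and at least 1 UMI of 2 or more of the 5 genes Xcl1, Cd160, Klrb1c, Nkg7 and Klrk1. It also had 0 UMIs of Cd4, Cd8a, Cd8b1, Trdc, Cd163l1, Foxp3, Cd79a and Csf1r. This rule selected 351 of 14302 kept barcodes. There were 94 members in the PBS library, 137 in the 3-day WGP library and 120 in the 7-day WGP library. The label was uncertain for the 95 members with a UMI of the NK receptor gene Ncr1. Fewer of them than of the other 256 had the T cell receptor gene Trac (34.7% against 79.3%). More of them had the NK adaptor gene Fcer1g (97.9% against 64.5%). Several results are given for these 95 and the other 256 apart.

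Live CD45+ cells had been sorted from the pancreas of mice given PBS, or given WGP 3 or 7 days before euthanization. WGP is a particulate β-glucan made from yeast, PBS is the buffer control, and the study's methods describe injection into the peritoneum of wild-type C57BL/6 mice. The labels give neither the sex and age of the mice nor how many were pooled in a library. For all experiments together, the study's methods give an age range in weeks and mice of both sexes, not broken down by library. With 1 library a group, the differences could not be set against replicate spread and were not tested, and the 95% intervals cover counting error only.

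T cells that share genes with NK cells include invariant NKT cells, mucosal-associated invariant T cells, intraepithelial lymphocyte-like cells and unconventional CD8-negative αβ T cells. They respond to cytokines and to stress ligands quickly, without the priming that conventional T cells need, and they release interferon-γ, chemokines and cytotoxic granules. NK cells do much of the same without a rearranged antigen receptor, yet their Cd3 genes, above all Cd3g and Cd3d, can be transcribed at a low level.

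Each library held 48219246 to 56849043 UMIs. Barcodes with at least 1000 UMIs and at most 30% mitochondrial UMIs were kept, and these were 5249, 4879 and 4174 in PBS, 3-day WGP and 7-day WGP, the order used for every set of 3 values here. Members held 445160, 753914 and 1009172 UMIs in all. Their median was 3690, 4146 and 6979.5 UMIs and 1326.5, 1514 and 2175 genes a cell, so the 7-day members were the deepest and shares of cells with a UMI favour them. Of the kept barcodes, 15 sequences occurred in more than 1 library, and none of them was a member in both. Sex-linked transcripts showed that mice of both sexes were mixed, in unequal parts. Cells with Xist, the female-specific RNA, were 54.0%, 16.0% and 39.3% of the kept barcodes with a sex-linked transcript and 34.4%, 7.14% and 31.25% of such members. The part of this mix in the differences below was not tested, and within-sex values are given for the shares and for a number of genes.

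The genes of the rule are given as description. Nkg7, a granule membrane gene, had a UMI in 98.9% of members, Xcl1, a lymphotactin chemokine, in 79.5%, and Klrk1, which encodes NKG2D, in 78.3%. Klrb1c, which encodes NK1.1, had a UMI in 56.1% and Cd160, a receptor of cytotoxic lymphocytes, in 47.9%. After each cell was thinned to 1000 UMIs, Xcl1 remained in 44.7%, 45.3% and 70.0% of members, against 0.102%, 0.789% and 0.503% of B cells, which should lack it. Without thinning these shares were 74.5%, 75.2% and 88.3% of members and 0.611%, 1.75% and 1.51% of B cells. Cd3e, the ε chain of the receptor complex, had a UMI in 71.2% of members. The median member had 7, 9 and 13 UMIs of the 3 Cd3 genes.

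The edges of the rule fell inside a continuum. With every other condition met, 44 barcodes had 1 Cd3 UMI and lay just outside, and 84.1% of them had an Ncr1 UMI and 6.82% a Trac UMI. The 29 members with exactly 2 Cd3 UMIs lay just inside, with 62.1% and 13.8%. On the other edge, 124 barcodes with 1 of the 5 genes lay just outside, of which 10.5% had Fcer1g, and 61 members with 2 of the 5 lay just inside, of which 47.5% had it. Of the 658 barcodes that met the Cd3 and the 5-gene conditions, 411 had 0 UMIs of the Cd8 genes, 34 had 1, 17 had 2 and 196 had 3 or more. Most barcodes left out for Cd8 therefore carried several of its UMIs, while a cell that captured none by chance could not be told apart from one without the coreceptor.

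**Figure D1:**
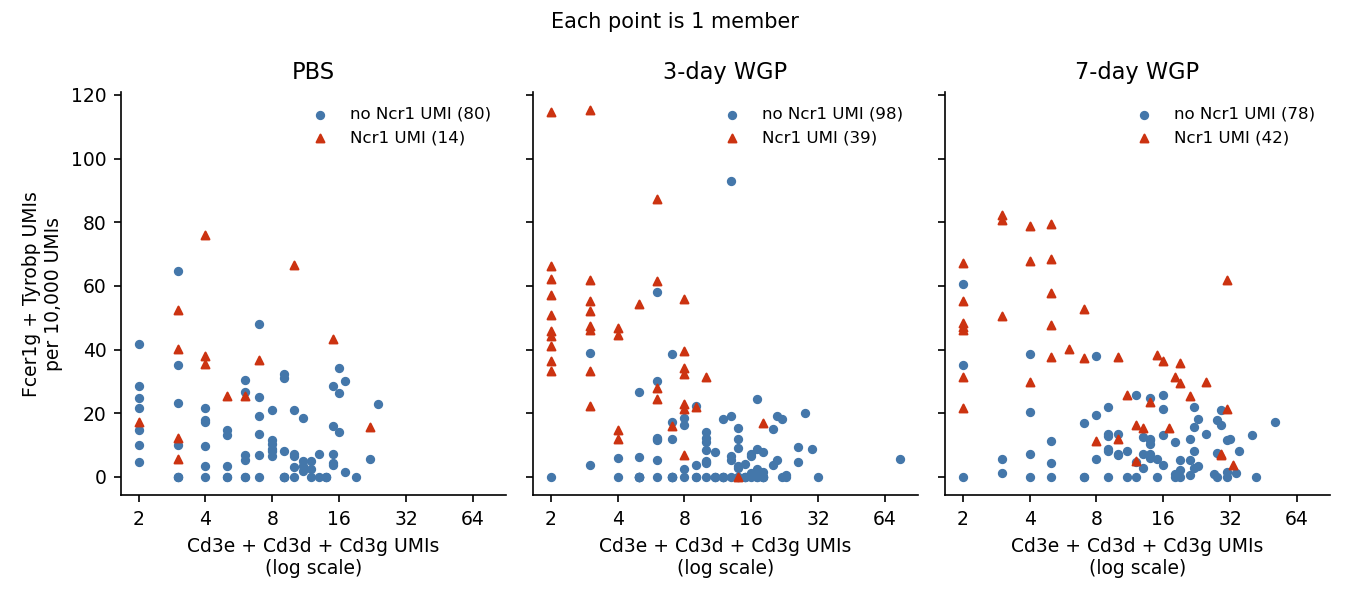
Each point is 1 member, with its summed UMIs of Cd3e, Cd3d and Cd3g on a log scale (x axis) and its UMIs of Fcer1g and Tyrobp per 10000 UMIs (y axis), in 1 panel a library. The 95 members with an Ncr1 UMI (triangles) lie mostly to the left and above the 256 without (circles), and their median number of Cd3 UMIs is 4, 4 and 7.5 against 8, 12 and 14.

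The receptor genes separated the members with Ncr1 from those without. Trac (ENSMUSG00000076928, chr14:54220521-54224206 in GRCm38), the constant segment of the α chain, had a UMI in 79.3% of the members without Ncr1 and 34.7% of those with it. It was seen in 90.2% of CD8 T cells and 5.75% of NK-like cells, where NK-like cells are kept barcodes with Ncr1, at least 2 of the 5 rule genes and no UMI of Cd3, Cd79a or Csf1r, and CD8 T cells have at least 2 Cd3 UMIs and a Cd8a or Cd8b1 UMI. The β chain constant gene Trbc2 followed with 96.5%, 67.4%, 97.4% and 36.2% in the same order of populations, and Cd3e with 84.0% of members without Ncr1 and 36.8% of those with it. Trbc1 did not separate them, with 55.1%, 78.9%, 58.7% and 79.0%, and reads of these near-identical β chain genes can be assigned to either. The inhibitory coreceptor gene Cd5 had a UMI in 24.2% of members without Ncr1, 5.26% of those with it, 38.9% of CD8 T cells and 0 of 713 NK-like cells, which allows a share of up to 0.421%.

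NK cell genes ran the other way. Fcer1g and Tyrobp, adaptors that couple NK receptors to kinases, had UMIs in 97.9% and 91.6% of the members with Ncr1, against 64.5% and 43.0% of those without and 23.2% and 18.6% of CD8 T cells. The granule genes Gzma and Prf1 had UMIs in 54.7% and 63.2% of members with Ncr1 and in 7.42% and 12.9% of those without. Klra8, which encodes the receptor Ly49H of NK cells, was seen in 19 of the 95 members with Ncr1, 45.4% of NK-like cells and 0 of the 256 members without Ncr1, which allows up to 1.17%. Fcer1g was in 100% of NK-like cells, so the members without Ncr1 lay between NK-like and CD8 T cells for this adaptor.

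Klra1, Klra7 and Ikzf2 were more frequent in members with or without Ncr1 than in CD8 T cells. Klra1 and Klra7, Ly49 receptors that recognise class I molecules, had UMIs in 41.4% and 43.4% of members without Ncr1 and 38.9% and 52.6% of those with it. The Ly49 genes are close copies, so their counts are uncertain between members of the family. Klra1 was seen in 13.0% of NK-like and 9.38% of CD8 T cells, while Klra7 was seen in 50.4% of NK-like and 14.6% of CD8 T cells. Ikzf2, the gene of the transcription factor Helios, had UMIs in 65.2% of members without Ncr1, 42.1% of those with it, 21.0% of NK-like cells and 26.1% of CD8 T cells. The γδ T cells, which had at least 2 Cd3 UMIs and a Trdc UMI, had Ikzf2 in 59.2% but Klra1 in 5.69%. Cxcr6, a chemokine receptor of tissue lymphocytes, was seen in 50.4% of members without Ncr1, 25.3% with it, 5.05% of NK-like, 40.7% of CD8 and 84.1% of γδ T cells.

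**Figure D2:**
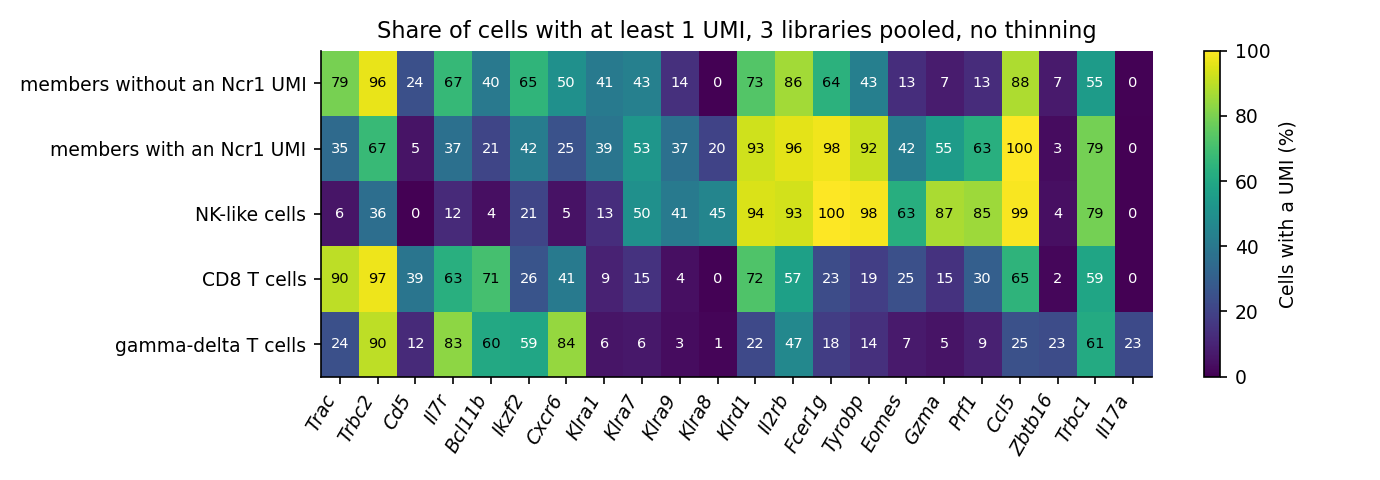
Colour and printed number give the share of cells with at least 1 UMI of each of 22 genes (columns), over the 3 libraries without thinning, in 5 populations (rows). The row of members without an Ncr1 UMI pairs Trac at 79.3% and Trbc2 at 96.5% with Klra1 at 41.4%, Klra7 at 43.4% and Ikzf2 at 65.2%, while the row of members with an Ncr1 UMI lies between it and the NK-like cells for Trac, Fcer1g and Gzma.

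Apart from Klrb1c, a gene of the rule, markers of the named invariant lineages were rare or at 0. Zbtb16, which encodes PLZF, the factor of invariant NKT and mucosal-associated invariant T cells, had a UMI in 5.98% of members, against 4.21% of NK-like cells and 23.3% of γδ T cells. Among the segments of the invariant receptors, Trav11 had UMIs in each library, at a low level. The 5 invariant NKT genes, Trav11 included, summed to 227, 297 and 221 CPM, of which Klrb1c held 216, 275 and 210 CPM. The segments Trav11d, Traj18, Trav1 and Traj33 were at 0 in all 351 members, which allows up to 0.855% of cells with a UMI. These segments are short and far from the captured RNA end, so a count of 0 limits UMIs and not receptors. Il17a, the gene of interleukin-17A, was seen in 0.285% of members, against 22.5% of γδ T cells. A UMI of a γ or δ segment other than Trdc was present in 31.9%, 41.6% and 44.2% of members.

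Other cell types were checked through their markers. Of the 8 monocyte or macrophage genes, 5, 6 and 6 were seen, with sums of 180, 188 and 261 CPM (counts scaled to a total of 1000000 UMIs), or 70.7, 53.5 and 122 CPM without the class II cells described below, and Csf1r (by the rule) and Adgre1 were at 0. The 4 neutrophil genes summed to 18.0, 9.28 and 26.8 CPM with Retnlg at 0, and the 3 endothelial genes to 33.7, 19.9 and 46.6 CPM with Cdh5 and Kdr at 0. Of the 3 mast cell or basophil genes, 0, 1 and 0 were seen. The 9 acinar genes summed to 106, 94.2 and 92.2 CPM against 10897, 5637 and 11231 CPM in the free RNA of barcodes with at most 100 UMIs. The 10 NK cell genes summed to 2264, 2967 and 3765 CPM in members and 1781, 2920 and 3765 CPM in that free RNA, and the 7 B cell genes to 2201, 2812 and 1670 CPM in members, or 772, 1206 and 448 CPM without the class II cells. Among the members, 12 cells (4, 5 and 3) had over 0.5% of their UMIs in the class II genes Cd74, H2-Aa, H2-Ab1 and H2-Eb1, as antigen-presenting cells do, with a median of 14247, 13364 and 29171 UMIs. The dendritic cell list summed to 65.1, 74.3 and 76.3 CPM with these cells and to 20.9, 22.3 and 42.1 CPM without them, and Siglech was at 0. Of the 5 members among the highest doublet scores, 2 were such cells, and several values are given with and without the 12 cells.

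The share of members was higher in both WGP libraries. It was 1.79% (1.45 to 2.19%) of kept barcodes in PBS, 2.81% (2.36 to 3.31%) in 3-day WGP and 2.87% (2.39 to 3.43%) in 7-day WGP. The log2 ratios to PBS were 0.65 (0.26 to 1.04) and 0.68 (0.28 to 1.09), and the 2 WGP libraries differed by 0.03. Against barcodes with at least 2 Cd3 UMIs, which were 1132, 1438 and 831, members were 8.30%, 9.53% and 14.4%. The log2 ratios on this base were 0.20 (-0.19 to 0.59) and 0.80 (0.40 to 1.20). The 3-day interval includes 0 with that denominator. Shares depend on the CD45+ sort and on the numbers of every other cell type in a library.

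The ratios were larger for the members with Ncr1. These were 14, 39 and 42 cells, or 0.267%, 0.799% and 1.01% of kept barcodes, with log2 ratios of 1.58 (0.67 to 2.58) and 1.92 (1.01 to 2.90). Members without Ncr1 were 80, 98 and 78 cells, or 1.52%, 2.01% and 1.87%, with log2 ratios of 0.40 (-0.04 to 0.84) and 0.29 (-0.17 to 0.76), with intervals that include 0. The split depends on depth, since a deeper cell shows an Ncr1 UMI more readily, and members had a median of 3690, 4146 and 6979.5 UMIs. Those without an Ncr1 UMI can include cells whose Ncr1 RNA was not captured. The part of depth in these ratios was not tested. NK-like cells moved from 1.85% to 6.64% and 7.00%, log2 ratios of 1.85 (1.51 to 2.19) and 1.92 (1.58 to 2.27). CD8 T cells moved from 2.02% to 3.83% and 4.98%, and γδ T cells from 2.10% to 6.31% and 2.20%.

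Within each sex the 3-day ratio was small. Among cells with Xist and no Y transcript, members were 1.03% (21 of 2039), 1.04% (5 of 479) and 2.48% (30 of 1208), with log2 ratios of 0.02 (-1.74 to 1.47) and 1.27 (0.42 to 2.15). Among cells with a Y transcript and no Xist they were 2.30% (40 of 1736), 2.59% (65 of 2510) and 3.54% (66 of 1865), and the ratios were 0.17 (-0.42 to 0.77) and 0.62 (0.03 to 1.22). The 7-day share was thus above PBS in both sexes, and the 3-day intervals include 0 in both. None of the 351 members had both Xist and a Y transcript.

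**Figure D3:**
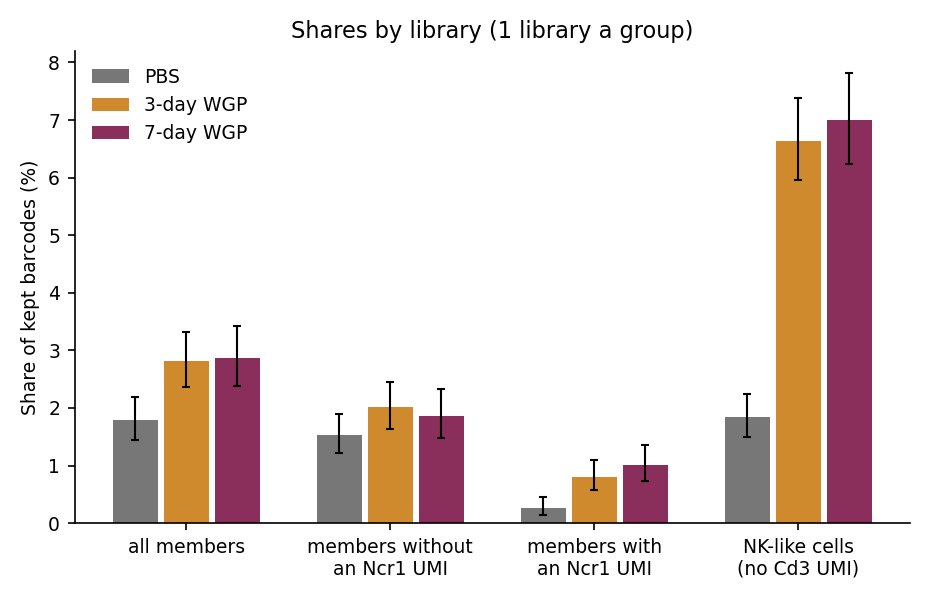
Bars give the share of kept barcodes (y axis, percent) in the 3 libraries for all members, for members without and with an Ncr1 UMI, and for NK-like cells, and the error bars are exact 95% binomial intervals. The intervals of the 3 libraries overlap for members without Ncr1, and those of PBS and WGP do not for the NK-like cells.

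Set beside the populations most like them, members had a mixed profile, which the rule fixed in part and which is description only. The log2 ratios of this comparison were taken after adding 10 CPM to each side. Against other barcodes with at least 2 Cd3 UMIs, the genes with the largest mean log2 ratio were Klra1, with 270, 236 and 304 CPM against 17.3, 9.55 and 43.4, and Klra7, with 301, 229 and 447 CPM against 18.1, 16.9 and 77.2. Klra9, Klre1, Klrc1, Klrc2, Klrd1 and Ncr1 followed, all of them NK receptor genes, together with Spry2, a brake on receptor signalling, Car2, a carbonic anhydrase, and the cathepsin gene Ctsw. The genes furthest below were B and plasma cell genes such as Mzb1, at 0, 6.63 and 2.97 CPM against 844, 2198 and 147, so the comparison barcodes held RNA of those cells. Against NK-like cells, members had more Trac, with log2 ratios of 4.37, 3.60 and 4.52, more Ly6c2 (2.73, 2.63 and 2.79) and more Cxcr6 (1.96, 3.50 and 2.40). They had less Gzma, with -6.47, -2.98 and -2.94, and less Klra4, Klra8, Khdc1a, Cma1, Prf1 and Klri2 in every library.

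Against CD8 T cells, members had less Dapl1, Gzmk, Ccr7, Themis and Igfbp4, genes of naive or memory conventional T cells. Dapl1 was at 51.7, 19.9 and 13.9 CPM against 258, 259 and 142, and the thymic selection gene Themis at 44.9, 21.2 and 21.8 against 166, 121 and 119. They had more Ncr1, Tyrobp, Fcer1g, Klra9, Klra1, Spry2 and Car2. Against γδ T cells, members had less Blk, Il17a, Tcrg-C1, Trdv4, Actn2 and Serpinb1a, all with log2 ratios of -3.08 or below in every library. The class II genes were also higher than in γδ T cells, but only with the 12 class II cells, and Cd74 went from higher to a mean log2 ratio of -1.65 without them.

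Gene levels were compared as CPM of the UMIs summed over the members of a library, with ratios for the 2640 genes whose mean over the libraries was at least 50 CPM. Against PBS, the 3-day library was at least 2-fold higher for 73 of 2639 genes with a ratio, a background of 2.77%, and at least 2-fold lower for 33, or 1.25%. The 7-day library was at least 2-fold higher for 82 of 2640 genes (3.11%) and lower for 29 (1.10%). Between the WGP libraries, 7-day WGP was higher for 45 genes (1.70%) and lower for 25 (0.947%). The median over all genes was 0.06 at 3 days and 0.08 at 7 days. Both WGP comparisons share the PBS library, and a change of level cannot be told apart from a change in which cells met the rule.

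**Figure D4:**
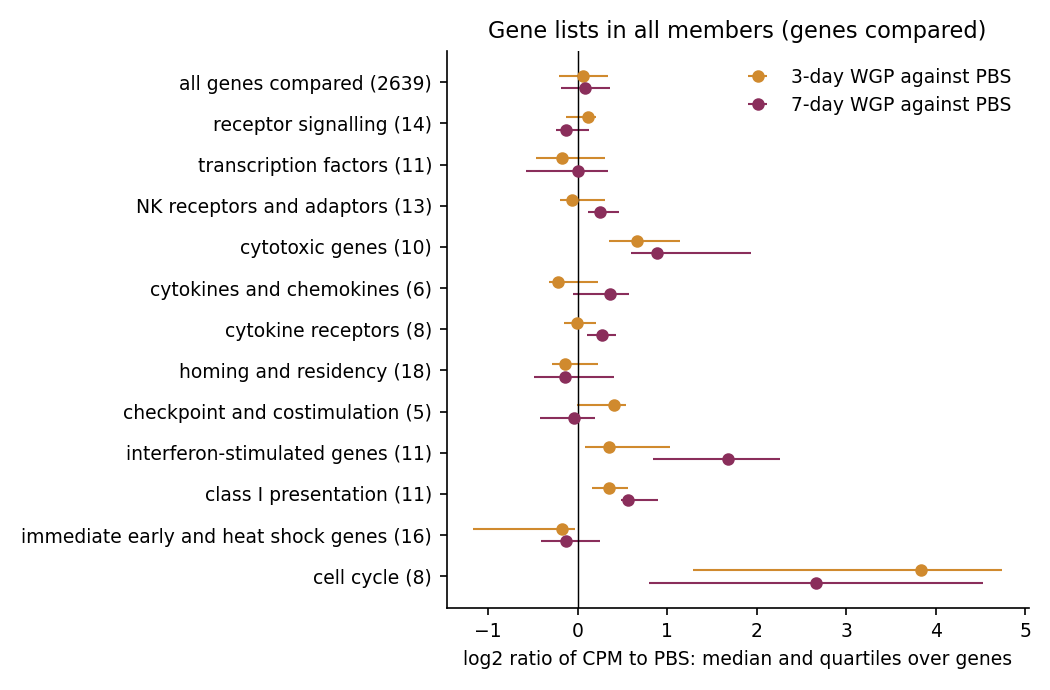
Points give the median log2 ratio to PBS over the genes of each list in all members, bars the quartiles over genes, and numbers the genes compared. Cell cycle genes stand highest at both times, interferon-stimulated genes are at 0.35 at 3 days and 1.68 at 7 days, and most other lists lie near the median of all genes.

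Cytotoxic genes were higher in the WGP libraries, by a median log2 ratio of 0.66 at 3 days and 0.89 at 7 days over the 10 genes compared. Of these, 3 were at least 2-fold higher at 3 days and 4 at 7 days, and 0 were lower. Over all genes compared, 2.77% and 3.11% were higher at 3 and 7 days. The background of lower genes was 1.25% and 1.10%, so little can be read from the 0. Gzma (ENSMUSG00000023132, chr13:113093825-113100981), the gene of granzyme A, was at 51.7, 669 and 909 CPM, or log2 ratios to PBS of 3.69 (3.09 to 4.36) and 4.14 (3.54 to 4.80). It had a UMI in 5.32%, 19.7% and 32.5% of members, and after thinning in 1.06%, 15.3% and 20.8%, against 0.838% of B cells at most. The 3 members with most Gzma held 87.0% of its UMIs in PBS, 51.8% at 3 days and 38.6% at 7 days, so the PBS level rested on few cells. Free RNA held Gzma at 52.8, 182 and 236 CPM, about the level over all members in PBS and below that level after WGP.

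Gzmb, the gene of granzyme B, was at 29.2, 166 and 235 CPM, or 2.51 (1.68 to 3.45) and 3.01 (2.21 to 3.94). Serpinb9, which protects cytotoxic cells from their own granzyme B, was at 58.4, 135 and 271 CPM, or 1.21 (0.58 to 1.89) and 2.21 (1.63 to 2.85). Prf1, the gene of perforin, was at 60.7, 110 and 133 CPM, or 0.86 (0.22 to 1.54) and 1.13 (0.53 to 1.78). The death ligand Fasl was at 56.2, 107 and 101 CPM, below the 2-fold line at both times.

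At 7 days Gzma, Gzmb and Serpinb9 were at least 2-fold higher in both kinds of member, and Prf1 was so only in those with Ncr1. Without Ncr1, Gzma was at 8.01, 37.7 and 116 CPM, all below its level in free RNA, and the PBS value was 3 UMIs in 1 of 80 cells. Its log2 ratios there, 2.23 and 3.85, therefore rest on a PBS count at the floor of 3. Those of Gzmb were 1.72 and 2.08, and those of Serpinb9 0.85 and 2.24. With Ncr1, the values were 3.12 and 3.21 for Gzma, 3.68 and 4.06 for Gzmb, and 1.39 and 1.77 for Serpinb9. The PBS level of Gzmb there, 28.3 CPM, lay below the 42.5 CPM that 3 counts are worth in those 14 cells. In PBS, Gzmb had a UMI in 14.3% of them and Gzma in 28.6%, so these ratios also rest on few cells. Prf1 was at -2.08 and -0.11 without Ncr1 and at 1.47 and 1.22 with it. Within Xist members the 7-day ratios were 5.12 for Gzma, 3.99 for Gzmb and 2.43 for Serpinb9, and within Y members they were 5.46, 2.40 and 2.47. The PBS counts behind these ratios were small, at 8, 2 and 6 UMIs in Xist members and 3, 9 and 9 UMIs in Y members.

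Over 13 NK receptor and adaptor genes compared, the median log2 ratio was -0.06 at 3 days and 0.26 at 7 days. It was 0.38 and 0.24 in members with Ncr1 and -0.28 and -0.11 in those without. Ncr1 (ENSMUSG00000062524, chr7:4337724-4345164) was at 65.1, 188 and 168 CPM, with ratios of 1.53 (0.95 to 2.16) and 1.37 (0.80 to 1.99), and it was the only one of the 13 at least 2-fold higher at 7 days. The background of higher genes at 7 days was 3.11%. Klra3, a Ly49 receptor, was higher at 3 days alone, with 38.2, 88.9 and 45.6 CPM and ratios of 1.22 (0.43 to 2.08) and 0.26 (-0.57 to 1.15). Klra7 was at 301, 229 and 447 CPM, or -0.39 (-0.73 to -0.06) and 0.57 (0.29 to 0.86). Fcer1g was at 903, 817 and 982 CPM and Tyrobp at 658, 720 and 790 CPM. Klra4, another Ly49 gene of NK cells, had 0 UMIs in PBS and 50.4 and 80.3 CPM after WGP. Klra8 was at 6.74, 37.1 and 56.5 CPM, and the receptor gene Klri2 at 11.2, 49.1 and 36.7 CPM. The means of these 3 genes lay below the 50 CPM needed for a ratio.

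Of 14 receptor signalling genes, 0 passed 2-fold in either direction at either time, where the backgrounds given above are a few percent, so little can be read from that count. Their median log2 ratios were 0.12 and -0.13 over all members, -0.14 and 0.20 with Ncr1, and 0.16 and -0.17 without. Trac was at 332, 363 and 368 CPM and Lck, the proximal kinase of the receptor, at 357, 407 and 339. Trbc1 was at 979, 516 and 732 CPM, with ratios of -0.92 (-1.13 to -0.72) and -0.42 (-0.59 to -0.25), and its 3-day ratio was -0.89 in Xist members and -1.56 in Y members. Zap70, the kinase recruited to the receptor chains, was at 83.1, 135 and 107 CPM, or 0.70 (0.15 to 1.29) and 0.36 (-0.19 to 0.94).

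Of 11 transcription factors compared, 0 passed 2-fold against PBS, where the backgrounds are 1.10% to 3.11%, so little can be read from that count. Between the WGP libraries, with backgrounds of 1.70% and 0.947%, 1 gene passed. That gene was Ikzf2 (ENSMUSG00000025997), at 389, 294 and 724 CPM, with ratios of -0.40 (-0.69 to -0.11) at 3 days and 0.90 (0.66 to 1.15) at 7 days. Its 7-day ratio was 1.08 without Ncr1, 0.76 with it, 1.18 in Xist members and 0.59 in Y members. Ikzf2 was also highest at 7 days in NK-like cells (61.1, 57.6 and 94.8 CPM), CD8 T cells (124, 108 and 392) and γδ T cells (286, 225 and 417). Klf2, a factor that keeps lymphocytes in circulation, was at 1103, 756 and 636 CPM, or -0.54 (-0.72 to -0.37) and -0.79 (-0.97 to -0.62). Its ratios were 1.15 and 1.34 in Xist members, against -1.12 and -1.61 in Y members. Eomes, shared by NK and memory T cells, was at 56.2, 53.1 and 77.3 CPM, and Tbx21, the gene of T-bet, at 74.1, 101 and 80.3.

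Among 6 cytokines and chemokines, Ccl4 alone was at least 2-fold higher, with 108, 325 and 305 CPM and ratios of 1.59 (1.14 to 2.07) and 1.50 (1.06 to 1.97). The background of higher genes was 2.77% and 3.11%, and so short a list says little by its count. Ccl4, a chemokine that draws other leukocytes, came from few cells, since 3 members held 66.7%, 58.4% and 53.2% of its UMIs. Its 3-day ratio was -0.68 in the members without Ncr1 and its 7-day ratio was 0.86 without the class II cells. Ifng, the gene of interferon-γ, was at 146, 187 and 219 CPM, or 0.36 (-0.08 to 0.80) and 0.58 (0.18 to 1.01). Ccl5, a chemokine of effector lymphocytes with a UMI in 91.2% of members, was at 8334, 6147 and 4979 CPM, with ratios of -0.44 (-0.50 to -0.38) and -0.74 (-0.80 to -0.68). In Xist members its ratios were 0.39 and 0.69, and in Y members -0.87 and -1.26. Il17f, Il22 and Il13 were at 0 in all members.

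Among 8 cytokine receptors, Il7r alone passed 2-fold, lower at 7 days, where the background of lower genes is 1.10%. Il7r (ENSMUSG00000003882), the interleukin-7 receptor of resting lymphocytes, was at 658, 378 and 315 CPM, or -0.80 (-1.04 to -0.56) and -1.06 (-1.30 to -0.83). The 7-day ratio was -1.11 without Ncr1 and -1.74 in Y members, against 0.17 with Ncr1 and 0.40 in Xist members. Il7r was also lower after WGP in NK-like cells (190, 68.0 and 54.4 CPM), CD8 T cells (518, 349 and 324) and γδ T cells (1233, 850 and 661). Il2rb, the β chain shared by the interleukin-2 and interleukin-15 receptors, was at 478, 619 and 729 CPM, or 0.37 (0.14 to 0.61) and 0.61 (0.39 to 0.83). Il18r1 was at 128, 127 and 131 CPM, level across the libraries.

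Over 18 homing genes the median log2 ratio was -0.14 at both times. Ccr2, a receptor of inflammatory recruitment, was at 139, 290 and 240 CPM, or 1.06 (0.65 to 1.49) and 0.78 (0.38 to 1.21), with 0.98 at 3 days without the class II cells and -0.58 in Xist members.

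S1pr1 and S1pr4, sphingosine-1-phosphate receptors used to leave tissue, were the 2 homing genes at least 2-fold lower at 7 days. The background of lower genes at 7 days was 1.10%. S1pr1 was at 110, 80.9 and 40.6 CPM, with ratios of -0.44 (-1.01 to 0.13) and -1.44 (-2.07 to -0.81). S1pr4 was at 96.6, 58.4 and 43.6 CPM, with ratios of -0.73 (-1.37 to -0.09) and -1.15 (-1.79 to -0.51). Cxcr6 was at 182, 308 and 220 CPM, or 0.76 (0.39 to 1.14) and 0.27 (-0.10 to 0.66). Of 5 checkpoint genes, Tnfrsf9, which encodes 4-1BB, was higher at 29.2, 63.7 and 88.2 CPM, or 1.12 (0.22 to 2.13) and 1.59 (0.75 to 2.56), while Icos was at 112, 163 and 70.4. The 7-day ratio of Tnfrsf9 was 1.82 in Y members and, from 5 and 7 UMIs, -0.02 in Xist members.

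Interferon-stimulated genes set the 7-day library apart. Of 11 compared, 3 were at least 2-fold higher at 3 days and 7 at 7 days, and 1 was lower at 7 days, with medians of 0.35 and 1.68. Between the WGP libraries, 6 were higher at 7 days, or 4 without the class II cells. Over all genes compared against PBS, 2.77% were higher at 3 days, and 3.11% were higher and 1.10% lower at 7 days. The background of genes higher in 7-day than in 3-day WGP was 1.70%.

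The guanylate-binding and immunity-related GTPases, which act against pathogens within cells, were higher at 7 days. Gbp2 was at 31.4, 49.1 and 175 CPM, or 0.64 (-0.28 to 1.64) and 2.48 (1.69 to 3.38). Igtp was at 24.7, 69.0 and 143 CPM, or 1.48 (0.52 to 2.57) and 2.53 (1.65 to 3.56). The 7-day ratio of Gbp2 was 0.50 in Xist members and 3.28 in Y members. Gbp4 was at 58.4, 80.9 and 187 CPM, or 0.47 (-0.21 to 1.19) and 1.68 (1.08 to 2.33). Others at least 2-fold higher at 7 days included Ly6a, a surface antigen of activated lymphocytes, at 71.9, 192 and 428 CPM, Zbp1, a nucleic acid sensor, at 22.5, 73.0 and 93.1, and Irf1, a transcription factor, at 67.4, 73.0 and 160.

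Among the other genes of the list, Ifi27l2a was lower, at 306, 228 and 136 CPM, with ratios of -0.42 (-0.75 to -0.09) and -1.17 (-1.52 to -0.82), and -0.80 at 7 days without the class II cells. Isg15 was at 15.7, 63.7 and 36.7 CPM, Ifit1 at 8.99, 33.2 and 4.95, Ifit3 at 6.74, 26.5 and 4.95 and Mx1 at 6.74, 15.9 and 2.97, all under the level needed for a ratio.

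The class I presentation list was higher at 7 days by a median of 0.56 over 11 genes, with 2 at least 2-fold higher and 0 lower, after a median of 0.35 at 3 days. Over all genes compared, 3.11% were higher and 1.10% lower at 7 days. Tap1, a peptide transporter subunit, was at 94.3, 122 and 208 CPM, or 0.37 (-0.17 to 0.93) and 1.14 (0.66 to 1.66). Tapbp, which loads peptide onto class I molecules, was at 108, 172 and 221 CPM, or 0.68 (0.19 to 1.19) and 1.04 (0.58 to 1.52). B2m, the light chain of class I, was at 2091, 2390 and 2996 CPM, or 0.19 (0.08 to 0.31) and 0.52 (0.41 to 0.63).

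**Figure D5:**
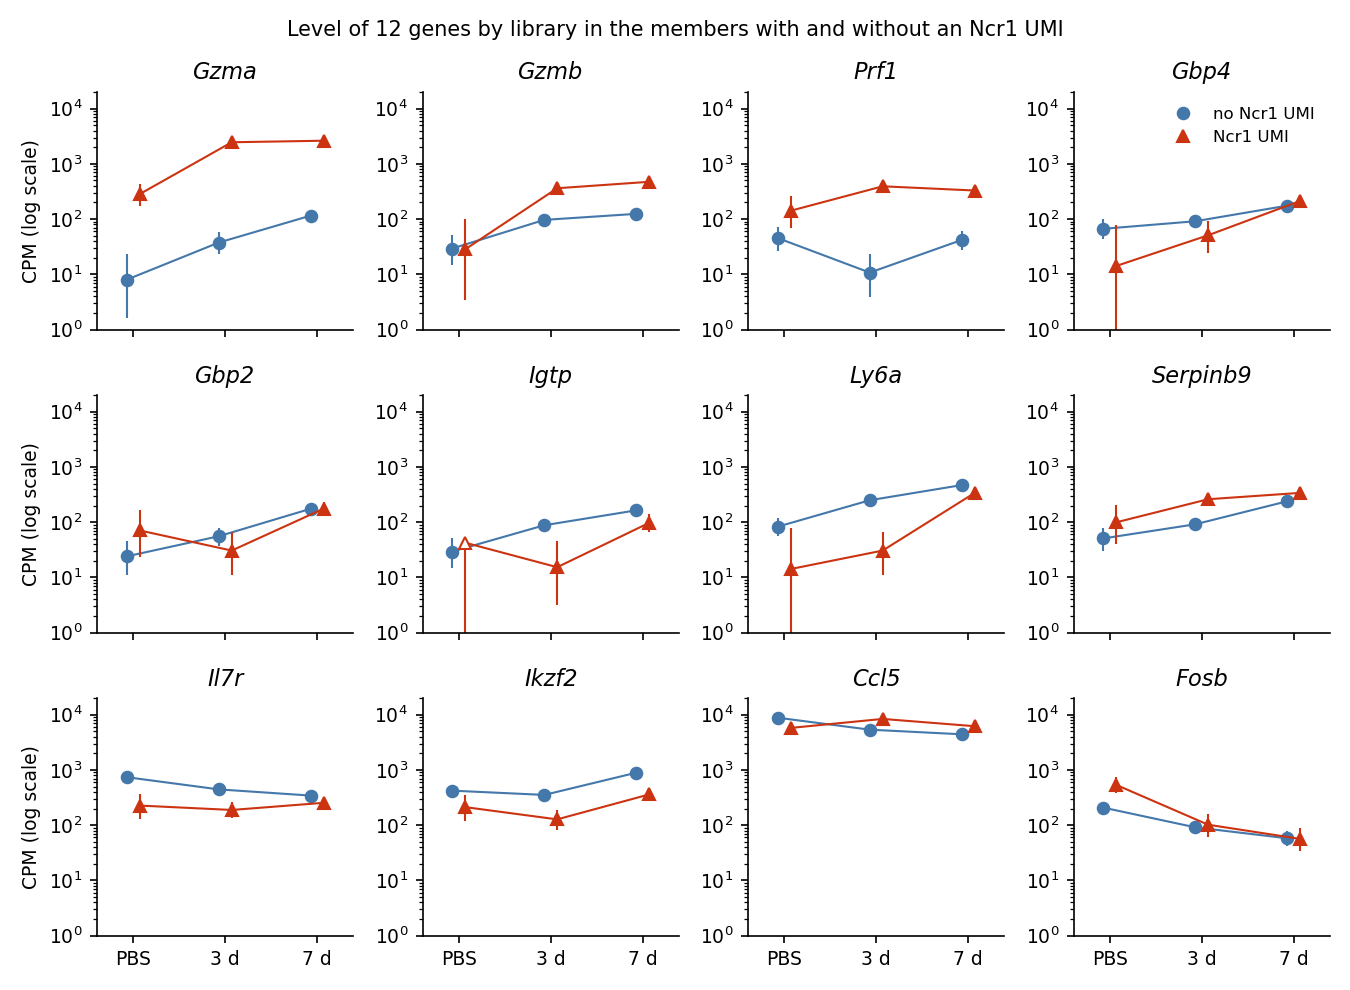
CPM on a log scale (y axis) of 12 genes in the 3 libraries (x axis), for members without (circles) and with (triangles) an Ncr1 UMI, with exact 95% Poisson intervals as vertical lines and an open symbol at 3 counts where no UMI was seen. Gbp2, Gbp4 and Serpinb9 are highest at 7 days in both kinds, Gzma and Prf1 are higher in members with Ncr1 in each library, and Ccl5 is below PBS after WGP without Ncr1 and above it with Ncr1.

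Promoters of 5 genes at least 2-fold higher at 7 days are shown as examples of windows with a motif match. Windows of 250 bases before and 50 after the transcript start came from RefSeq (GRCm38.p6) and were searched on both strands for the gamma-activated site of interferon-γ genes (GAS, TTCNNNGAA) and the core of the interferon-stimulated response element (ISRE, GAAANNGAA). The letters of the 2 motifs can overlap. Of 35 list or named genes at least 2-fold higher at 7 days, 23 had 28 windows between them, since some genes have more than 1 transcript start. Of the 28 windows, 7 held GAS and 6 the ISRE core, in 7 and 6 genes, and the other window of Irf1 (chr11:53770223-53770522) held neither. Over all 32851 windows the shares were 8.30% and 8.56%, and the genes had been chosen with earlier results known, so nothing is read from the counts. A match is a run of letters and was not tested as a site, and no match says only that the letters are not in the window. The windows below run 5′ to 3′ on the strand of the gene, with matches in capitals and their first base given relative to the transcript start.
Irf1 (chr11:53769764-53770063, plus strand, GAS at -90): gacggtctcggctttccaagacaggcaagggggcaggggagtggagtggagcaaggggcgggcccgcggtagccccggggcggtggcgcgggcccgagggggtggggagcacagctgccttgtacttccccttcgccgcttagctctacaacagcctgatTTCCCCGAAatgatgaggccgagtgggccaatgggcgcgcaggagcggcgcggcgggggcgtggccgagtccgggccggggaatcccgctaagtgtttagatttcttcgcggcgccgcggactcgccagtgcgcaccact
Gbp2 (chr3:142620413-142620712, plus strand, ISRE core at -58): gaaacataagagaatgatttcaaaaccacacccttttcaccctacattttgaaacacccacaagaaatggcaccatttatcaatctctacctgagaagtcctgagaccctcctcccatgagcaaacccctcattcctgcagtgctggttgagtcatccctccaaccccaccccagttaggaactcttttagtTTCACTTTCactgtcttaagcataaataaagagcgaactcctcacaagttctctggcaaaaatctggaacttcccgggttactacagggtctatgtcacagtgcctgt
Igtp (chr11:58199306-58199605, plus strand, GAS at -45 and ISRE core at -34): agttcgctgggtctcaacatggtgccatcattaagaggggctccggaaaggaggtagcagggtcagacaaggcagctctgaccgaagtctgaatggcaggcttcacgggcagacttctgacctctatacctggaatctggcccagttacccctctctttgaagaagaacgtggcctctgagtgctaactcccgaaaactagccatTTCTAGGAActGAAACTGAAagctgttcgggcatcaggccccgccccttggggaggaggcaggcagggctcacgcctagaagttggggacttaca
Cxcl10 (chr5:92348840-92349139, minus strand, ISRE core at -213): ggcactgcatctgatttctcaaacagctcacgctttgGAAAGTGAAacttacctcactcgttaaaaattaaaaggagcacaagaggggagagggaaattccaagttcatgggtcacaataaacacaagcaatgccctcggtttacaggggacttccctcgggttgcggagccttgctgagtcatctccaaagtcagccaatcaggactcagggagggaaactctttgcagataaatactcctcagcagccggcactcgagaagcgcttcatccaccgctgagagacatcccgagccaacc
Gzma (chr13:113100932-113101231, minus strand, ISRE core at -96 and -66): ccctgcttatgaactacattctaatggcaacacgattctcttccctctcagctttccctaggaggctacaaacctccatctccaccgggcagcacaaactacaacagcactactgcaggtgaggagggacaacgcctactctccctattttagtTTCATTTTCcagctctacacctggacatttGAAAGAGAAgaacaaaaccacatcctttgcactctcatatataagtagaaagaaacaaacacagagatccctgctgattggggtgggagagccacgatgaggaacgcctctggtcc

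Cxcl10, a chemokine induced by interferon-γ, was at 4.49, 15.9 and 205 CPM, with a 7-day ratio of 5.51 (3.64 to 8.57) that rests on 2 UMIs in PBS. It had a UMI in 1.06%, 0.730% and 25% of members and 1.22%, 2.19% and 6.70% of B cells. After thinning these shares were 1.06%, 0% and 9.17% of members and 0.254%, 0.351% and 1.84% of B cells. Free RNA held Cxcl10 at 14.1, 32.5 and 433 CPM, above the member level in every library, and the part of free RNA and of the macrophage genes given above was not tested. Plac8, expressed in activated lymphocytes, was at 49.4, 135 and 476 CPM, or 1.45 (0.78 to 2.19) and 3.27 (2.65 to 3.95). The study used Plac8 together with Chil3 to mark infiltrating macrophages, and the part of macrophage RNA in its level here was not tested. Furin, a proprotein convertase, was at 15.7, 35.8 and 165 CPM, with 3.40 (2.32 to 4.73) at 7 days. Il1b was also among these genes, but 3 members held 94.8% of its 7-day UMIs and its ratio went from 5.10 to 1.31 without the class II cells.

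Other genes high at 7 days were signalling regulators. Traf1, an adaptor of tumour necrosis factor receptors, was at 236, 158 and 508 CPM, or -0.58 (-0.97 to -0.19) and 1.11 (0.80 to 1.42). Nfkbia, the NF-κB inhibitor, was at 256, 235 and 569 CPM, or -0.13 (-0.47 to 0.23) and 1.15 (0.86 to 1.45). The GTPase gene Gem was at 103, 73.0 and 251 CPM, the serpin Serpina3g at 71.9, 80.9 and 277, and the receptor Gpr171 at 65.1, 47.8 and 174.

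The genes furthest below PBS at 7 days included a pair of membrane proteins and a calcium binder. Tmem176a was at 94.3, 122 and 13.9 CPM, or 0.37 (-0.17 to 0.93) and -2.77 (-3.75 to -1.86). Tmem176b was at 96.6, 164 and 19.8 CPM, or 0.77 (0.26 to 1.30) and -2.29 (-3.13 to -1.49). Socs2, a brake on cytokine signals, was at 85.4, 84.9 and 18.8 CPM, with -2.18 (-3.06 to -1.35) at 7 days. S100a4 was at 456, 480 and 157 CPM, with -1.54 (-1.85 to -1.24) at 7 days. Over all members these 4 genes were level or higher at 3 days, and their 7-day ratios were negative in members with and without Ncr1 and in both sexes. In the 5 Xist members at 3 days they were lower, with S100a4 at -2.56 (-4.22 to -1.30). Tmem176a, Tmem176b and Socs2 had 0 UMIs in those cells. Cst3 was lower as well, at -1.13, but without the class II cells it was at 118, 164 and 118 CPM.

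Several immediate early and heat shock genes, which respond to handling of cells as well as to stimuli, were highest in PBS. Of 16 compared, 5 were at least 2-fold lower at 3 days and 2 at 7 days, with 1, Nfkbia, higher at 7 days, and medians of -0.18 and -0.13. Without the class II cells 3 were lower at 3 days and 1 at 7 days. Over all genes compared in all members, 1.25% were lower at 3 days, and 1.10% were lower and 3.11% higher at 7 days. Hspa1a, an inducible chaperone, was at 865, 131 and 402 CPM, or -2.72 (-3.05 to -2.40) and -1.10 (-1.31 to -0.90), and its 7-day ratio was 0.81 in Xist members and -1.73 in Y members. Fosb was at 261, 94.2 and 57.5 CPM, or -1.47 (-1.92 to -1.03) and -2.18 (-2.66 to -1.71). Jun was at 667, 298 and 545 CPM, and Hspa1b at 744, 245 and 552. Their part in the differences between libraries was not tested.

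Cells with several proliferation genes were seen in the WGP libraries and not in PBS. Members with at least 3 of 6 proliferation genes were 0 of 94 (0%, 0 to 3.85%) in PBS, 10 of 137 (7.30%, 3.56 to 13.0%) at 3 days and 11 of 120 (9.17%, 4.67 to 15.8%) at 7 days. Of these, 8 and 10 had no Ncr1 UMI. All 8 cell cycle genes compared were at least 2-fold higher at 3 days and 5 at 7 days, with medians of 3.83 and 2.67. The background of higher genes was 2.77% and 3.11%. Stmn1, a microtubule regulator of dividing cells, was at 4.49, 351 and 192 CPM, and Top2a, a topoisomerase of replicating cells, at 4.49, 123 and 124. Pclaf, a replication factor, had 0 UMIs in PBS and 110 and 147 CPM after WGP, at least 4.03 and 4.44 higher on the log2 scale. In members with Ncr1 the list medians were 0.22 and 0.76, with Pclaf and Top2a, at 0 UMIs in PBS, entering as lower bounds.

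The remaining genes named for their size at 3 days were of mixed kinds. Lmnb1, H2afx and Hist1h1b, genes of nuclear structure and histones, were higher, with ratios of 2.77, 2.64 and 3.01, and Hist1h1b rested on 3 cells for 80.5% of its 3-day UMIs. Lncpint, a long noncoding RNA, was lower at both times, at 98.8, 35.8 and 34.7 CPM, and in both sexes. Ifitm3 and Tmem123 were lower at 3 days, at -1.30 and -1.32, against 0.99 and -0.16 without the class II cells.

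Between the WGP libraries, the interferon-stimulated genes and Ikzf2 were joined by other genes higher at 7 days. Lilr4b, an inhibitory receptor of the immunoglobulin family, was at 13.5, 25.2 and 117 CPM, with a ratio of 7-day to 3-day WGP of 2.21 (1.51 to 3.00). The same ratio was 1.30 (1.08 to 1.52) for Ikzf2 and 3.69 (2.85 to 4.66) for Cxcl10. Among the lower genes were Ramp1, a subunit of the receptor for the neuropeptide CGRP, at 80.9, 154 and 45.6 CPM, and Icos, with -1.21 (-1.66 to -0.78). Emp3, a membrane protein, was at 393, 448 and 177 CPM, and Tspan32, a tetraspanin, at 98.8, 61.0 and 32.7.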

How the data were processed

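Single-cell RNA libraries of sorted CD45+ pancreas cells were analysed, 1 library each for PBS, 3-day WGP and 7-day WGP, grouped by their labels. The deposited files hold UMI counts per gene and barcode that the authors made with Cell Ranger 3.1.0 on mm10, per the labels, with no normalization. Barcodes with at least 1000 UMIs and at most 30% mitochondrial UMIs were kept. Scrublet scores (scanpy 1.11.5) marked only 0, 3 and 5 barcodes at the automatic threshold, so doublets were not removed, and an alternative left out the 220, 190 and 139 highest scores. The members and the 12 gene lists (211 genes, 210 measured) were chosen with earlier results of these data known.

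UMIs were summed over the members of a library and scaled to CPM. Genes with a mean of at least 50 CPM were compared, and a gene was called at a 2-fold difference. A count of 0 was replaced by 3 counts in the library, which makes the ratio a lower bound where the 0 is in the reference library and an upper bound where it is in the other, and no ratio was given where both counts were at most 3. Intervals are exact (Clopper-Pearson for shares, conditional binomial for ratios, Poisson for levels) at 95%, with scipy 1.17.1 and numpy 2.4.6, and were tested on simulated counts. Genes named were those of the lists and the 10 furthest each way in each comparison, ranked by the interval bound nearest to 0. Beside other populations the 20 and 8 furthest genes were taken, ranked after adding 10 CPM. Genes described by their share of cells were taken from the lists and from the rule. For shares set beside B cells (Cd79a of at least 2 UMIs and no Cd3), each cell was thinned to 1000 UMIs. TMM factors came from edgeR 4.0.16 as an alternative only. No test was made, since the design has 1 library a group. Results on some genes are not reported here.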

Additional observations from a re-analysis of the deposited data

Results flagged for a closer look

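Of 157 genes examined, 2 moved in opposite ways at the 2 times against the shared PBS library, and the difference was not tested. Traf1 had log2 ratios of -0.58 at 3 days and 1.11 at 7 days, and Tmem176b of 0.77 and -2.29.

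A further 8 of 157 genes moved in opposite ways at 7 days in members with Xist and members with a Y transcript, and the difference was not tested. The inhibitory receptor gene Klrc1 had log2 ratios of -0.77 in Xist members and 1.01 in Y members, and Tgfb1, a suppressive cytokine, of -1.09 and 1.17. Klf2 was at 1.34 and -1.61, Tcf7, another factor of resting T cells, at 0.89 and -1.04, and Ccl5 at 0.69 and -1.26. The stress genes Fos, Hspa1b and Hspa1a were at 1.32 and -0.57, 1.50 and -0.95, and 0.81 and -1.73. These ratios rest on 21 and 30 Xist members and 40 and 66 Y members in the PBS and 7-day libraries.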

How the results depend on the processing

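No paired analysis was possible because each group had 1 library and no result came from a test. Of the alternatives, 39 of 48 shares, 45 of 84 gene counts and 206 of 240 list medians stayed close to the reported value, and 1049 of 1251 ratios of named genes kept their direction and stayed past 2-fold, while 177 kept the direction only and 25 turned. Without thinning, 33 shares of members with a UMI moved and 3 did not. The causes were not tested. Alternatives on Ncr1, class II and proliferating cells were chosen after seeing the data. Few cells a library limit depth: 3 counts are worth 6.74, 3.98 and 2.97 CPM.

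The log2 ratio of shares at 3 days, 0.65, was 0.20 of barcodes with at least 2 Cd3 UMIs, 0.019 in Xist cells, 0.17 in Y cells and 1.58 with Ncr1. At 7 days, 0.68 became 1.27 in Xist cells and 1.92 with Ncr1. Between the WGP libraries, 0.03 became 0.60 of barcodes with Cd3, 1.25 in Xist cells and 0.45 in Y cells.

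Counts of genes at least 2-fold higher and lower at 3 days (73 and 33) were 262 and 192 after thinning, 44 and 20 with 10 CPM added, 14 and 5 with 50 CPM added, 996 and 780 with no filter, 174 and 123 in Y members and 484 and 246 in Xist members. Without proliferating cells 41 were higher, with cells weighted equally 50 were lower, and without γ or δ segments 66 were lower. At 7 days (82 and 29) they were 306 and 192 after thinning, 34 and 7 with 50 CPM added, 986 and 682 with no filter, 129 and 49 without γ or δ segments, 238 and 110 in Y members and 163 and 109 in Xist members. Between the WGP libraries (45 and 25) they were 228 and 182 after thinning, 21 and 11 with 50 CPM added, 798 and 709 with no filter, 87 and 51 in Y members and 289 and 406 in Xist members. There 72 were higher with cells weighted equally and 92 without γ or δ segments. The share of higher calls at 3 days, 68.9%, was 57.7% after thinning, 56.1% with no filter, 58.75% without γ or δ segments, 58.6% in Y members and 51.9% without proliferating cells. At 7 days, 73.9% became 61.4% after thinning, 59.1% with no filter, 59.9% in Xist members and 58.2% with Ncr1. Between the WGP libraries, 64.3% became 53.0% with no filter, 76.0% without γ or δ segments, 41.6% in Xist members and 52.9% with Ncr1.

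The cytotoxic median at 3 days was 1.64 in Xist members, 0.34 without Ncr1 and 1.22 with it, and at 7 days 0.57 without Ncr1. The class I median at 7 days was 0.36 in Xist members. The cell cycle median at 3 days was 0.72 in Xist members, 0.22 with Ncr1 and 0.87 without proliferating cells, and at 7 days 0.76 with Ncr1 and 0.28 without proliferating cells.

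In Xist members, 5 of them at 3 days, ratios turned at 3 days to -0.58 for Ccr2 and Ly6a, -2.33 for Ckb, 0.072 for Dnajb1, -0.40 for H2afx, -1.08 for Plac8 and 0.70 for Tmem123 (Ly6a and Tmem123 had 0 UMIs there, replaced by 3 counts, so these are bounds), and at 7 days to 0.81 for Hspa1a, 0.40 for Il7r, -0.14 for Mcm5 and -0.019 for Tnfrsf9. In Y members AY036118 turned to 0.052 at 3 days. With Ncr1, ratios turned at 3 days to -0.059 for Pclaf and Top2a (0 UMIs in PBS, so lower bounds), 0.33 for Tmem123 and 2.53 for Ifitm3, and at 7 days to 0.17 for Il7r. Without Ncr1, Ccl4 turned to -0.68 at 3 days and Prf1 to -0.11 at 7 days. Ifitm3 turned at 3 days to 3.53 without the highest doublet scores and 0.99 without class II cells, and Tmem123 to 0.26 after thinning. Without proliferating cells, Ube2c turned to -1.21 at 3 days and Hist1h1b to -0.14 at 7 days. Cst3 turned to 1.49 at 7 days without the 5 deepest cells of each library.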
